A study of Mus musculus with 4 samples.

Results

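The enzymes that build cholesterol from acetyl-CoA were compared between fasted and refed mouse liver through 8 genes: Hmgcs1, Idi1, Fdps, Fdft1, Sqle, Lss, Cyp51 and Dhcr7. They were found by gene name among the non-control spots of the arrays and held 9 of the 39429 probes. Of these, 8 probes, 1 for each gene, were bright enough to be tested, beside 16054 named genes in all. Livers came from male C57BL/6J mice (strain given as C57/Bl6) aged 8 to 12 weeks with no genetic change named in the labels. In the fasted group food was withheld for 24 h, and the refed group went through the same 24 h fast and then had food for 2 h. There were 4 fasted and 4 refed livers, and each array held RNA of 1 fasted and 1 refed liver, 200 ng of each, labeled with Cy5 or Cy3. Fasted RNA carried Cy5 on replicates 1 and 2 and Cy3 on replicates 3 and 4, so that an effect of the dye alone cancels in the mean over the 4 arrays. Every value below is a log2 ratio of fasted over refed liver unless it is called a level, and a negative ratio means that the RNA was higher after refeeding.

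Cholesterol is made in the cytosol and the endoplasmic reticulum. Acetyl-CoA is first built into mevalonate, mevalonate is turned into short isoprenoid units that are joined into squalene, and squalene is closed into lanosterol and trimmed to cholesterol. The liver is a main site of this synthesis, and the genes are classical targets of SREBP2, a membrane-bound transcription factor that is released by proteolysis when sterols are scarce. INSIG proteins hold SREBP2 and its escort SCAP in the endoplasmic reticulum.

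All 8 hepatocyte markers, albumin among them, were well above background in both conditions. The median spot signal was 40 to 96 in the fasted and 44 to 75 in the refed channel, over a local background of 20 to 35. Ratios of all tested probes correlated at 0.66 and 0.75 between arrays of the same dye orientation, and at 0.22 to 0.40 between arrays of opposite orientation. The refed liver of replicate 3 stood apart in its pancreatic acinar markers. Its summed level over the 8 pancreatic acinar markers, of which 4 passed the filter, was 29871, where the other 3 refed livers and the 4 fasted livers lay between 1421 and 2297. Its summed cholangiocyte markers stood at 601, against at most 483 in the other refed and 498 in the fasted livers, with 2 of 4 genes passing the filter. Of these, the bile duct keratin Krt19 was lowest on replicate 3, at -1.19 against -0.14, -0.17 and -0.11 on replicates 1, 2 and 4, and Sox9 on replicate 2, at -0.43 against 0.12, -0.27 and 0.02 on replicates 1, 3 and 4. Its stellate (664 against at most 617) and adipose (1006 against at most 981, with 1 of 4 genes passing) sums were close to those of other livers, and its endothelial, immune and blood sums were within the range of the other refed livers. The summed level of the 2 blood markers found, of 3 listed, also varied, from 19098 to 89443 in fasted and from 12484 to 27183 in refed livers.

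The measurements rest on 60-base probes, and the first 30 bases of the 8 that were tested are given here because they say which stretch of each transcript was read. Positions are those printed in the scanner files, on build mm9. Which part of the transcript a probe covers is not given in the sources used here.
Hmgcs1 (A_55_P2032966, chr13_random:114793-114852, minus strand): agtaattttaacgtttgggtgccaagaagt
Idi1 (A_55_P2028961, chr13:8891524-8891583, plus strand): ctaatttcttgctaactctgaacagttgat
Fdps (A_55_P1966804, chr3:88897549-88897608, minus strand): tcttcatggaacttgcaaacaagatctaca
Fdft1 (A_55_P2033250, chr14:63765750-63769990, minus strand): agagatttatcactggatccccaactcaga
Sqle (A_55_P1975185, chr15:59162688-59162747, plus strand): tgatttcagtatttggggtgactcattggg
Lss (A_51_P296487, chr10:76015992-76016051, plus strand): cgcttaaagttcttggactagcttcagtga
Cyp51 (A_52_P164161, chr5:4081471-4081530, minus strand): aggttccttttagtattatctttggttatt
Dhcr7 (A_55_P2022337, chr7:151033874-151033933, plus strand): tcagaggccattgaagaagggaggcttttt
The Fdft1 probe shown spans 4241 bases of genome for its 60 bases, so its target crosses an intron. The Hmgcs1 probe was placed on an unplaced contig of chromosome 13. Fdft1 was the single gene of the group with a second probe, which was well above background on 1 of 4 arrays in each condition and was not tested.

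Of the 8 genes, 5 were called lower in fasted liver: Sqle, Fdps, Idi1, Lss and Cyp51. A gene was called at an adjusted p under 0.1 in limma's moderated test over all kept probes, together with a change of at least 1.5-fold. None was called higher, and none was higher at an unadjusted p under 0.05. A rebuilt SAM analysis of the same ratios called the same 5 genes, but 3 were called without replicate 2, 2 without replicate 3, and 0 with background correction fitted on all spots, where the median over the 8 genes was -0.37. Over all genes tested, 2.13% were called lower, that is 342 of 16054. The median over the 8 genes was -0.79, a level 1.73-fold higher after refeeding, against 0.003 over all genes tested, and the called genes ran from -1.82 to -0.70. In bulk tissue, fewer cells of a type and less RNA per cell cannot be told apart. The 8 hepatocyte markers had a median ratio of 0.16, from -0.14 to 0.84, with 0 called lower and Tat called higher (limma adjusted p = 0.0451). Tat had ratios of 1.19, 1.25, 0.61 and 0.30 on replicates 1 to 4, with a dye effect at a limma adjusted p of 0.0472.

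**Figure D1:**
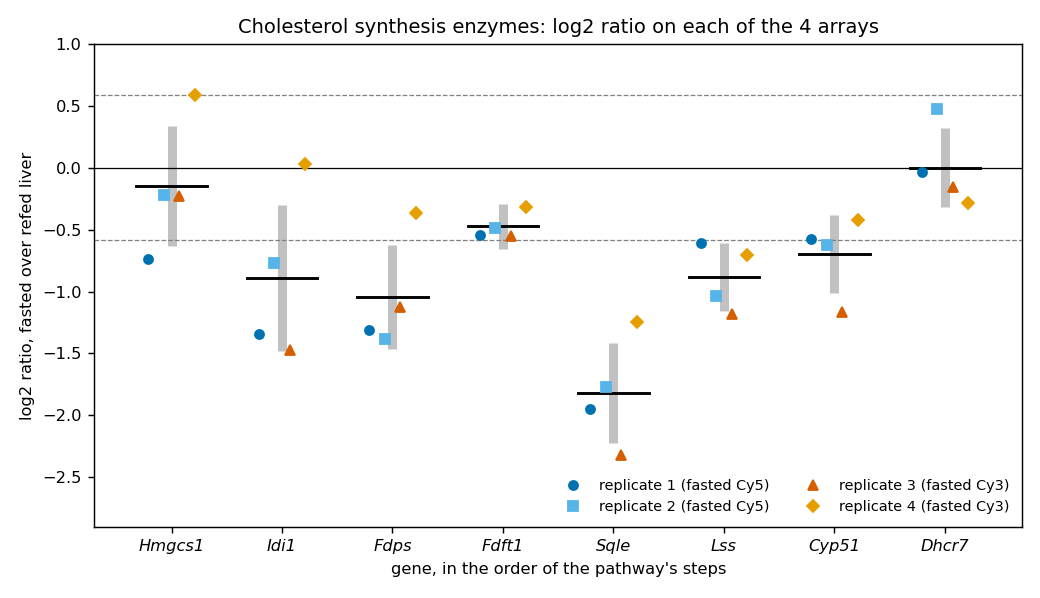
Log2 ratio of fasted over refed liver for each of the 8 genes, with 1 point per array, the mean as a black line and its 95% confidence interval from limma as a gray bar. Dashed lines mark 1.5-fold. All 4 arrays lie below 0 for Fdps, Fdft1, Sqle, Lss and Cyp51, while Hmgcs1, Idi1 and Dhcr7 straddle 0.

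Hmgcs1 makes HMG-CoA, the precursor of mevalonate, and opens the pathway among the 8 genes. Its level on the log2 scale was 11.18, 12.04, 11.89 and 12.39 in the fasted livers of replicates 1 to 4, and 11.91, 12.26, 12.12 and 11.80 in the refed livers. The groups overlapped fully, and fasted RNA was lower on 3 arrays and higher on replicate 4. The ratio averaged -0.15 ± 0.55 (SD, n = 4 arrays), with a 95% confidence interval of -0.63 to 0.34 and a limma adjusted p of 0.743. That interval leaves room for a change of more than 1.5-fold downward, so the arrays do not show Hmgcs1 to be unchanged.

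Idi1 turns isopentenyl diphosphate into its isomer, the starter of chain growth. Fasted livers gave levels of 9.99, 10.84, 10.28 and 11.02, and refed livers 11.33, 11.61, 11.75 and 11.00. The first 3 arrays were clearly lower in the fasted liver, but on replicate 4 both livers had nearly the same level, and the groups overlapped through the refed liver of that array. The ratio was -0.89 ± 0.68 (SD, n = 4 arrays), the widest spread among the 8 genes, with a limma adjusted p of 0.0942. This call was the weakest of the 5. It was lost without replicate 1 (limma adjusted p = 0.216), replicate 2 (0.208) or replicate 3 (0.277), at ratios of -0.74, -0.93 and -0.69. It strengthened to an adjusted p of 0.0386 without replicate 4, at -1.19. It was also lost with no filter on dim probes, at an adjusted p of 0.152.

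Fdps joins isoprenoid units into farnesyl diphosphate, which also feeds protein prenylation, dolichol and ubiquinone. Its levels were 9.95, 10.85, 10.92 and 11.33 in fasted livers and 11.25, 12.24, 12.04 and 11.70 in refed livers. Fasted RNA was lower on every array, by the smallest amount on replicate 4, and the groups overlapped because the fasted liver of replicate 4 lay above the refed liver of replicate 1. The ratios of -1.31, -1.39, -1.13 and -0.36 averaged -1.05 ± 0.47 (SD, n = 4 arrays), a 2.07-fold higher level after refeeding, with a limma adjusted p of 0.0269. Without replicate 3 the adjusted p was 0.108 at a ratio of -1.02, and the call was lost.

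Fdft1, squalene synthase, takes the first step that is committed to sterols. Fasted levels were 9.07, 9.53, 9.55 and 9.75, and refed levels 9.62, 10.02, 10.10 and 10.07. Each array showed the fasted liver lower by a similar step, while the levels of the livers overlapped across arrays. The ratios of -0.55, -0.48, -0.55 and -0.32 averaged -0.47 ± 0.11 (SD, n = 4 arrays), the tightest of the 8 genes. Its limma adjusted p was 0.0250, but a 1.39-fold difference misses the 1.5-fold limit, so Fdft1 was not called. The dim second probe gave 0.03, -0.18, 0.02 and -0.10, at signals of 34 to 79 over backgrounds of 23 to 33.

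Sqle, squalene epoxidase, is a rate-limiting oxygenase of the later pathway and showed the largest difference of the 8 genes. Its levels were 7.90, 9.18, 8.74 and 9.35 in fasted livers and 9.85, 10.95, 11.06 and 10.59 in refed livers. Every fasted liver lay below every refed liver. The ratios of -1.95, -1.77, -2.32 and -1.24 averaged -1.82 ± 0.45 (SD, n = 4 arrays), with a 95% confidence interval of -2.23 to -1.42. Sqle was 3.53-fold higher after refeeding, with a limma adjusted p of 0.00605, and ranked 17 among all tested genes from the most lowered.

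In raw terms the median Sqle signal rose from 113 to 687 on replicate 1, from 534 to 1883 on replicate 2, from 460.5 to 2310 on replicate 3 and from 859 to 2033 on replicate 4, over backgrounds of 17 to 35. The call held without any 1 of the 4 arrays, at ratios of -2.01 to -1.66. On each of the 4 arrays the Sqle ratio was also below that of each of the other 7 genes. Its distance to the next gene, Fdps, was 0.77 ± 0.34 (SD, n = 4 arrays; exact sign-flip permutation p = 0.125, two-sided, the smallest that 4 arrays allow). Both genes were picked by their order in these same ratios, which that p does not take into account.

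Lss closes the epoxide of squalene into lanosterol, the first sterol. Fasted levels were 7.23, 7.31, 7.19 and 7.46, and refed levels 7.84, 8.35, 8.37 and 8.16. As for Sqle, every fasted liver lay below every refed liver. The ratios of -0.61, -1.04, -1.18 and -0.70 averaged -0.88 ± 0.27 (SD, n = 4 arrays; limma adjusted p = 0.0149), a 1.84-fold higher level after refeeding.

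Cyp51, the demethylase that acts on lanosterol, gave fasted levels of 6.99, 7.54, 7.07 and 7.68 and refed levels of 7.57, 8.16, 8.23 and 8.10. The fasted liver was lower on every array, with the largest step on replicate 3, and the groups overlapped through the refed liver of replicate 1. The ratios of -0.58, -0.62, -1.16 and -0.42 averaged -0.70 ± 0.32 (SD, n = 4 arrays; limma adjusted p = 0.0352). The Cyp51 call was lost without replicate 2 (ratio -0.72, limma adjusted p = 0.113) and without replicate 3, where the ratio of -0.54 fell short of 1.5-fold.

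Lss and Cyp51 were read close to background. Fasted Lss signals were 72.5, 124, 147 and 231 over backgrounds of 26 to 37.5, and fasted Cyp51 signals were 57.5, 149.5, 134.5 and 263 over 24 to 32. The size of their ratios depended on how background was removed. With Agilent's processed signals Lss read -1.30 and Cyp51 -1.13, and with normexp fitted on all spots Lss read -0.43 and Cyp51 -0.31 and neither was called.

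Dhcr7 reduces the sterol ring in a last step to cholesterol. Its levels were 7.82, 8.18, 7.88 and 7.77 in fasted livers and 7.85, 7.71, 8.04 and 8.05 in refed livers. Fasted RNA was higher on replicate 2 and lower on the other 3 arrays, and the groups overlapped. The ratio was 0.0013 ± 0.33 (SD, n = 4 arrays), with a 95% confidence interval of -0.32 to 0.32 and a limma adjusted p of 0.997. A change as large as 1.5-fold in either direction lay outside that interval.

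**Figure D2:**
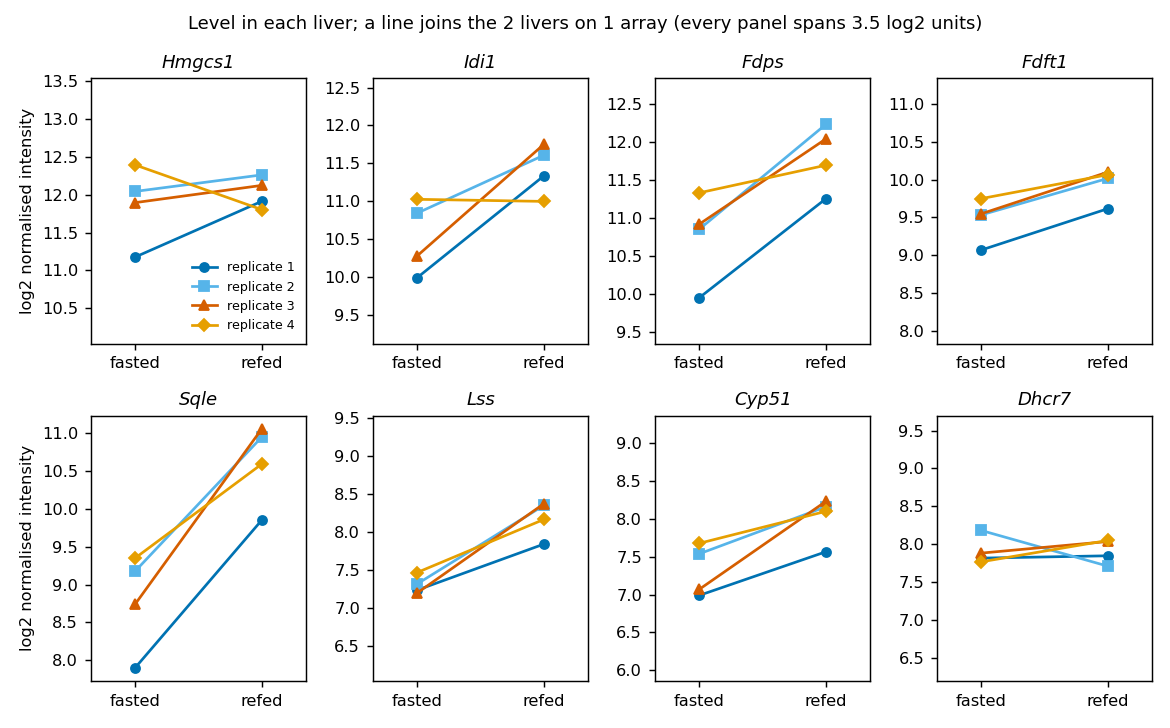
Log2 normalized intensity of each gene in the 4 fasted and 4 refed livers, with a line joining the livers that shared an array. Each panel spans the same range of log2 units, but levels are not comparable between panels because each gene has its own probe. Lines rise from fasted to refed on all 4 arrays for Fdps, Fdft1, Sqle, Lss and Cyp51, and the groups do not overlap for Sqle and Lss.

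From the lowest ratio, the order of the 8 genes was Sqle, Fdps, Idi1, Lss, Cyp51, Fdft1, Hmgcs1 and Dhcr7. This order depended on the processing. With Agilent's processed signals Lss (-1.30) and Cyp51 (-1.13) lay below Fdps (-1.07) and Idi1 (-0.93). Neighbors from Fdps to Lss lay within 0.16 of each other, less than the SD of those differences over the arrays (0.43 and 0.64). Lss lay below Cyp51 on all 4 arrays, by 0.19 ± 0.19 (SD), and Cyp51 below Fdft1 on all 4, by 0.22 ± 0.26. With 4 arrays no such difference can reach an exact permutation p under 0.125, and the direction of each mean difference was set by the ordering.

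The arrays also differed in how far the genes moved together. The median over the 8 genes was -0.67 on replicate 1, -0.69 on replicate 2, -1.14 on replicate 3 and -0.34 on replicate 4. Replicate 3 held the lowest ratio for 5 of the genes and replicate 4 the highest for 6, although both arrays had the same dye orientation. On replicate 4, 2 of the 8 genes were past 1.5-fold lower, against 5 on each of the others. Replicate 3 was also the array whose refed liver had the high acinar marker level, and the part of that liver in the result was not tested. Without replicate 3 the median over the 8 genes was -0.62, and Sqle and Lss were still called.

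Measured array by array, 2 of the 8 genes, Sqle and Lss, were past 1.5-fold lower on every array, as were 0.741% of all genes tested. The same 2 genes had 4 fasted levels below all 4 refed levels, a pattern found in 7.77% of all genes. A dye effect past limma's adjusted threshold of 0.1 was found for 0 of the 8 genes, and for 0 at an unadjusted p under 0.05, where 15.4% of all genes had one after adjustment. The dye terms ran from -0.33 for Hmgcs1 to 0.22 for Dhcr7. With the dye as a second term the same 5 genes were called.

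Of the other listed enzymes of the pathway, Mvd alone was called. Of 13 such genes, 12 passed the brightness filter and 1 was called lower, against 2.13% of all genes, and the ratios of the other 11 ran from -0.38 to 0.25. Mvd, which makes isopentenyl diphosphate just before Idi1, had ratios of -0.96, -2.23, -2.24 and -2.18, a mean of -1.90 ± 0.63 (SD, n = 4 arrays; limma adjusted p = 0.0125). The Mvd call was lost with background correction fitted on all spots. Mvk, mevalonate kinase, gave -0.38 with an adjusted p of 0.0544 and missed the fold limit, and its second probe gave -0.31 with an adjusted p of 0.213. The median over the 12 genes was -0.10, and 3 of them were lower at an unadjusted p under 0.05, as were 11.8% of all genes tested.

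In pathway order the called genes fell into 1 stretch, a grouping that was drawn after the values were seen and carries no test. From Mvd to Cyp51, 6 of 7 tested genes were called lower, and the seventh was Fdft1. All 6 calls were lost with background correction fitted on all spots. Idi2 did not pass the brightness filter. Before Mvd 0 of 4 genes were called, with ratios of -0.38 to 0.06, and after Cyp51 0 of 9, with ratios of -0.38 to 0.25. With 2.13% of all genes called lower, 0 calls among so few genes sets no edge to the stretch. Msmo1, a methyl oxidase listed after Cyp51, Tm7sf2 and Lbr, was the lowest of the later genes at -0.38, with a limma adjusted p of 0.172. Hsd17b7 was the highest at 0.25, with an adjusted p of 0.367.

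**Figure D3:**
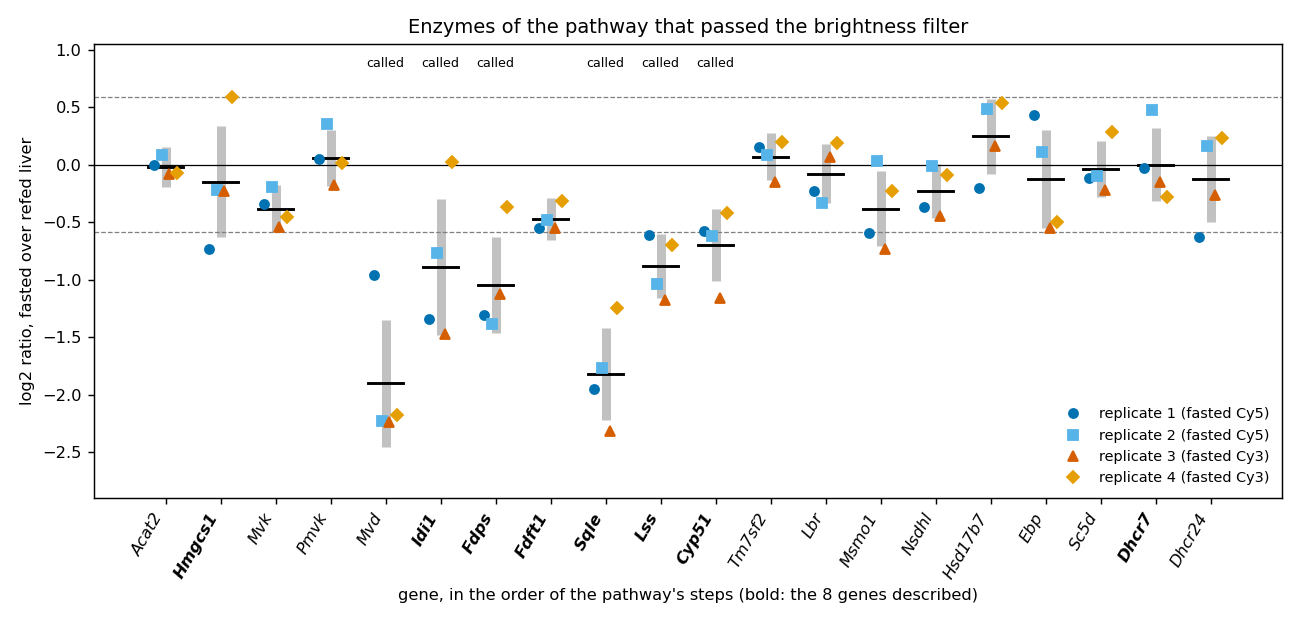
Log2 ratio of fasted over refed liver on each array for the listed enzymes of the pathway that passed the brightness filter, in the order of their steps, with means (black lines), 95% confidence intervals (gray bars) and 1.5-fold limits (dashed). The 6 genes called lower stand between Mvd and Cyp51, and Mvd and Sqle lie lowest, at -1.90 and -1.82.

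The branches that leave the pathway at farnesyl diphosphate and its neighbors, toward ubiquinone, dolichol and prenylated proteins, were covered by 7 tested genes out of 8 listed. Of these 0 were called in limma and 0 in a rebuilt SAM analysis, where 2.13% of all genes were called lower and 1.82% higher, so that few calls would be found among 7 genes in any case. Their median was -0.04. At an unadjusted p under 0.05, 2 were lower and 1 higher, beside 11.8% and 10.3% of all genes. Dhdds, a subunit of the enzyme that makes dolichol precursors, gave -0.35 and, on its second probe, -0.37 (limma adjusted p = 0.130 and 0.0833), and Nus1, the other subunit, gave -0.23 and, on its second probe, -0.08 (0.218 and 0.637). The higher gene was Ggps1, which extends farnesyl diphosphate, at 0.39 with a limma adjusted p of 0.0823, below the fold limit. Its second probe gave 0.04.

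Among 6 tested sterol regulators and carriers, out of 7 listed, 2 were called lower and 1 higher, against 2.13% and 1.82% of all genes. Insig1, itself an SREBP target, gave -0.72 (limma adjusted p = 0.0354), and Stard4, a sterol carrier, gave -1.15 (0.0345), with -0.59 from its second probe. Insig2 ran the other way, with ratios of 1.21, 1.21, 1.40 and 0.93, a mean of 1.19 and an adjusted p of 0.00424, and its second probe gave 1.39. Scap gave 0.37 with an adjusted p of 0.0402, short of 1.5-fold. Srebf2, which encodes SREBP2, gave -0.07 with an adjusted p of 0.769 and a 95% confidence interval of -0.30 to 0.17.

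Outside the 8 enzymes, the genes whose 4 ratios lay nearest to the mean profile of the 8 enzymes (-0.89, -0.73, -1.02 and -0.34 on replicates 1 to 4) were Erdr1, Akr1c20, Irf1, Poli and Steap4, at root mean square distances of 0.149, 0.174, 0.199, 0.202 and 0.223 over the 4 arrays. Among the 8 enzymes themselves, Cyp51 lay nearest at 0.183 and Sqle farthest at 1.09. Each of the 8 is itself part of that mean, so these distances are not on the same footing as those of the genes outside.

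Promoter sequence is shown for the 5 genes that the RefSeq table used here lists, because Idi1, Lss and Cyp51 were called and Hmgcs1 and Dhcr7 were not. Windows for Fdps, Fdft1 and Sqle were not used here. Each line gives the 180 bases just before an annotated transcript start on build GRCm38.p6, 5′ to 3′ along the gene. Capitals mark, on either strand, CACNCCAC (a sterol regulatory element core), CCAAT (the NF-Y box) and GGGCGG (the Sp1 GC box). For Dhcr7, which has 3 listed starts, the one whose window holds both boxes is shown.
Hmgcs1 (chr13:119690171-119690350, plus strand): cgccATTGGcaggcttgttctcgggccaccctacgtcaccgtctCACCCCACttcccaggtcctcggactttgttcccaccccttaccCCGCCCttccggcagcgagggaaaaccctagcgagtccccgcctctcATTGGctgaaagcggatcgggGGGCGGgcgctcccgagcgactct
Idi1 (chr13:8885426-8885605, plus strand): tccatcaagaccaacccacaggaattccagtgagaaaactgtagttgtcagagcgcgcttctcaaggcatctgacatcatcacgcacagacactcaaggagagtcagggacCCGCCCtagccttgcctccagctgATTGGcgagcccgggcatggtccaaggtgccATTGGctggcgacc
Lss (chr10:76531425-76531604, plus strand): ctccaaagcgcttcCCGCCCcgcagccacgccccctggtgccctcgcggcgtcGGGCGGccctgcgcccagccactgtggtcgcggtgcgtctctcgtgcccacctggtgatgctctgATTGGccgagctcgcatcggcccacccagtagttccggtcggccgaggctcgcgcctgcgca
Cyp51 (chr5:4104698-4104877, minus strand): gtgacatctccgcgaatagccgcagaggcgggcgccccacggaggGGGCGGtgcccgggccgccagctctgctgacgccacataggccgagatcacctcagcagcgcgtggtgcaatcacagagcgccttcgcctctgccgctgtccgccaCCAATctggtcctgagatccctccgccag
Dhcr7 (chr7:143830034-143830213, plus strand): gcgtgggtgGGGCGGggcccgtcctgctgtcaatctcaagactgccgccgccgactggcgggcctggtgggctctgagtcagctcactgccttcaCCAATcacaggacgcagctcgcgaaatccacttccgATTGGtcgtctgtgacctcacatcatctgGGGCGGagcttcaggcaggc
Searched over windows of 250 bases before to 50 after the start, CCAAT was found in 5 of the 7 windows of these genes and in 37.4% of all 32851 windows, and GGGCGG in 6 of 7 and 35.7%. Counted by gene, with any of the 3 Dhcr7 windows allowed to match, both were found in 5 of 5. A share by gene over all genes was not computed, so this count has no background beside it. The sterol element core was found in 1 of the 7 windows, that of Hmgcs1, 136 bases before the start, and in 6.24% of all windows. The E-box CACGTG was found in 1 of 7, a Dhcr7 window, and in 7.15% of windows. TGACG, the short form of the cAMP response element to which CREB binds, was found in Cyp51 at 108 bases and in Hmgcs1 at 147 bases before the start, and in 20.8% of windows. The whole element TGACGTCA was found in 0 of the 7 and in 1.79% of windows. TGACG is contained in the whole element, and the other motifs shared no base in these windows. Sqle and Fdps, with the lowest ratios of the 8 genes under the processing described, are not among the windows. A strict pattern such as CACNCCAC misses variants of the element. A gene can have more letters of these kinds outside the windows, and a match of letters is not a binding site.

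**Figure D4:**
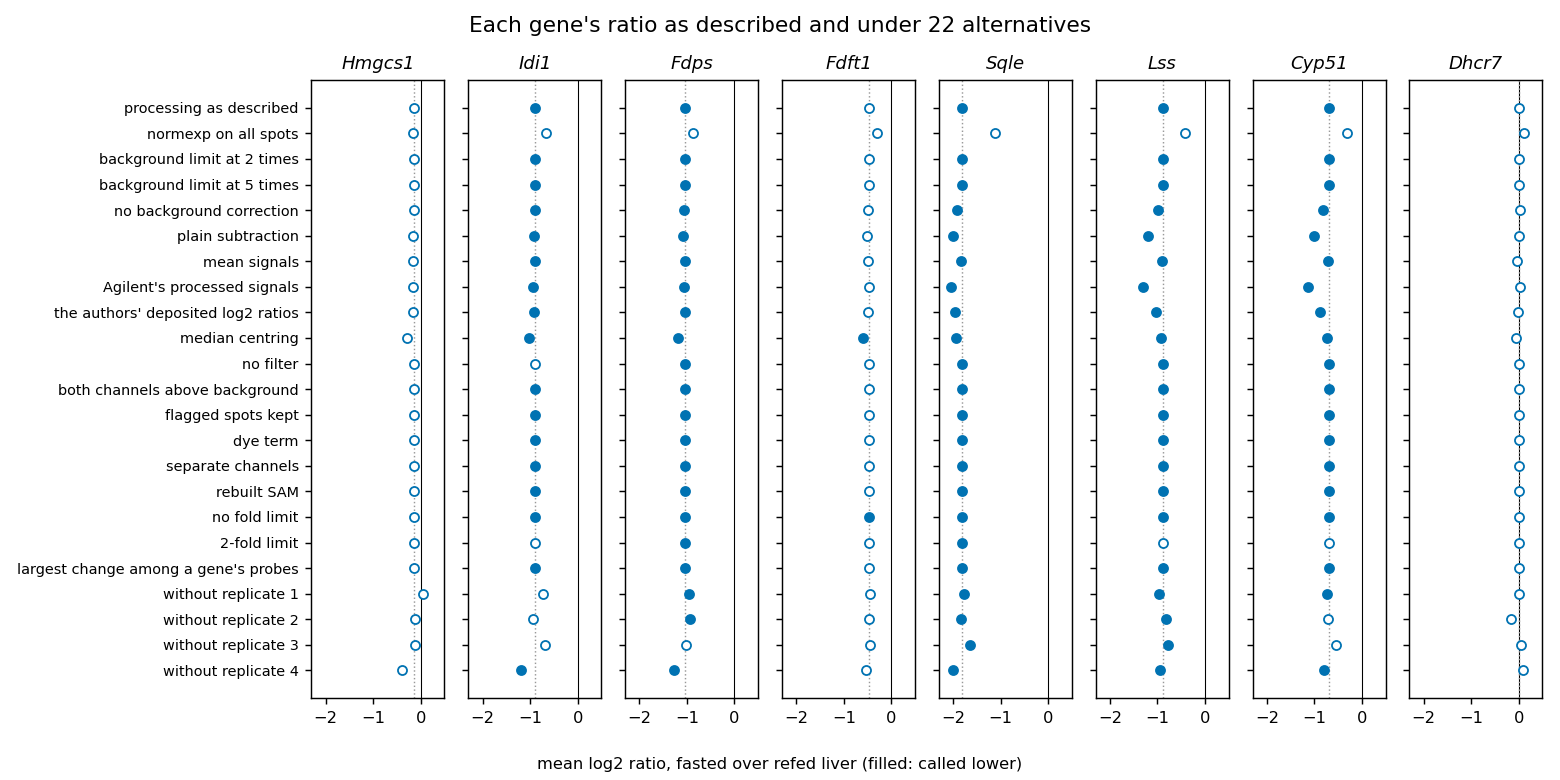
Mean log2 ratio of fasted over refed liver for each of the 8 genes under the processing described and 22 alternatives, with filled points where the gene was called lower. The 5 called genes stayed below 0 under every alternative plotted. Changes of filter, test, dye term, fold limit or probe choice leave these ratios as they are, so those alternatives could not turn them. All 5 calls were lost when background correction was fitted on all spots.

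Leaving out spots of high local background was the step whose reversal ended all 5 calls. A total of 11, 0, 29 and 15 spots on replicates 1 to 4 had a local background over 3 times the array's median and were left out before the background was modeled. That limit was chosen with earlier results of these data known. With those spots kept, the Sqle ratio on replicates 3 and 4 shrank from -2.32 and -1.24 to -0.46 and -0.27, and the SD of ratios over all kept probes on those arrays from 0.38 and 0.39 to 0.20 and 0.19. Sqle then averaged -1.11 and 0 of the 8 genes were called (limma adjusted p of at least 0.559), while 5 probes were called higher and 15 lower on the whole array. The deposited log2 ratios, whose background step is not stated, gave Sqle -1.96, Fdps -1.05, Lss -1.03, Idi1 -0.92 and Cyp51 -0.87, and all 5 were called from them.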

How the data were processed

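Median spot intensity and local background intensity, as deposited by the authors in 4 Agilent dye-swap scanner files, were the starting values. The authors also deposited log2 ratios, normalized by loess in limma per the labels, as an alternative. Its rows matched the spots by row number (r = 0.339 to 0.956 with raw ratios), ran as fasted over refed and had column medians of -0.117, -0.081, 0.057 and 0.014; the background step behind it is not given in the sources used here. All arrays came from 1 slide and 1 scan. In R 4.3.3 with limma 3.58.1, spots with a local background over 3 times the array's median were left out, background was corrected by normexp (offset 50), and ratios were normalized by loess with control spots at weight 0. Flagged spots were set missing and spots of a probe averaged. A probe was kept when well above background on all 4 arrays in at least 1 condition. This left 19721 of 39429 probes, with 1 probe (the brightest) per gene. Symbols came from RefSeq by accession (26055 probes), symbol (3195) or synonym (930). Ratios were turned to fasted over refed and tested with lmFit and eBayes, two-sided, and p-values of the kept probes were adjusted together by Benjamini-Hochberg. Levels per liver came from Aquantile normalization. Named genes were the 8 enzymes, 13 other enzymes, 8 branch genes, 7 regulators and the 5 genes nearest in profile. These members and lists, and the limit of 3 times the array's median background, were chosen with earlier results of these data known. Some items of these lists are not reported here. The scripts were tested on simulated data. The number of arrays limits the precision, and 22 alternative settings were run.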

Additional observations from a re-analysis of the deposited data

Results flagged for a closer look

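Of 42 genes and marker sums scanned, 2 had 1 array farther from the other 3 than Dixon's 95% limit for 4 values allows, and chance gives about 1 in 20. The Mvd ratio on replicate 1 was -0.957, against -2.23, -2.24 and -2.18 on the other arrays. The ratio of the summed acinar markers on replicate 3 was -3.70, against 0.02, 0.11 and 0.09.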

How the results depend on the processing

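Sqle kept its call under 21 of 22 alternatives, Fdps and Lss under 20, Cyp51 under 18 and Idi1 under 16, and none of the 5 turned direction. Changes of filter, test, dye term, fold limit or probe choice leave these ratios as they are, so their direction could not turn there. Removing the fold limit cannot end a call, and choosing a gene's largest change alters nothing where 1 probe was tested. The number of the 8 genes called was 5, or 4 to 6 under 18 of the alternatives. With normexp fitted on all spots it was 0, the median of the 8 genes -0.37, the other enzymes called 0, and the probes called 5 higher and 15 lower, against 335 and 410. With a 2-fold limit it was 2, with 99 probes higher and 132 lower. With no fold limit 2 other enzymes were called, and 935 probes were higher and 1208 lower. Probes called higher and lower were 550 and 714 after plain subtraction and 686 and 904 with Agilent's processed signals. After median centring they were 230 and 635, so that 26.6% of calls were higher instead of 45%. Without 1 replicate at a time the genes called numbered 2 to 5, the probes called higher 208 to 414 and lower 257 to 529, and the median of the 8 genes -0.86 to -0.62. The lowest count, 2, came without replicate 3, and 3 came without replicate 2. Uncalled genes near 0 turned sign: Dhcr7 read -0.028 from mean signals, -0.0095 from the deposited ratios, -0.058 after median centring and -0.16 to 0.096 without 1 replicate, and Hmgcs1 -0.39 to 0.048 without 1 replicate. The cause of these shifts was not tested, apart from the fold limits, which act by construction. Low signal over background limits Lss, Cyp51 and Dhcr7. Every ratio pairs the 2 livers of 1 array, and a fit of the separate channels called the same number of the 8 genes, 5.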
